A study of Homo sapiens with 4 samples.

Results

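The collagen genes were defined as the rows of the TPM table (an mRNA level scaled for gene length and library total) whose symbol is COL, a number, A and a number. This rule found 44 of 59409 rows. A further 9 rows with such a symbol and a suffix, antisense transcripts, pseudogenes and a divergent transcript, were not members. Of the 44 genes, 18 reached 1 TPM in at least 2 of the 4 libraries, the level at which a gene was tested. The other 26 stayed under 1 TPM in every library, and 2 of these, COL3A1 and COL23A1, were listed at 0 throughout.

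The libraries hold polyadenylated RNA of 786-O, an established cell line from a human clear cell kidney carcinoma in which the VHL protein is not functional. The knockout cells, labelled DEK KO, came from a Cas9-expressing clone of this line made with the LentiCas9-Blast virus, which was then infected with a LentiGuide-Puro virus carrying guides against DEK and sorted into single cells. DEK binds chromatin and acts as a histone chaperone. The control cells are labelled as a negative control with the genotype WT, and the names of their table columns begin with Cas9. Whether they received a guide is not stated. Each group had 2 libraries, here DEK KO 1 and 2 and control 1 and 2. All cells were grown in the same medium with serum. It is not stated from which clone a knockout library was made, nor whether the libraries of a group were separate cultures. The p-values therefore measure the spread between these libraries alone, and that spread may be technical. The comparison asked how mRNA levels differ when DEK is knocked out.

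Collagens are proteins of the extracellular matrix made of 3 chains wound into a triple helix, and 1 residue in every 3 along a chain must be glycine, the smallest amino acid, for the helix to form. Fibrillar collagens form the banded fibres of connective tissue. Type IV collagen forms the sheet of basement membranes, on which kidney tubules and glomerular capillaries rest, type VI collagen forms beaded microfilaments beside it, and type VII collagen anchors it to the tissue below. FACIT collagens sit on the surface of fibrils, transmembrane collagens span the cell membrane, and the multiplexins carry sugar chains and release fragments such as endostatin.

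The glycine repeat was present in all 44 genes. Collagen symbols are given to genes for chains of this helix, so the repeat describes the chosen genes and is not a test of them. In the longest coding sequence of each gene (GENCODE release 29), the longest run of codon triplets that each begin with a glycine codon held 23 to 343 triplets, with a median of 60.5. Among 11591 other tested coding genes the median was 2.0, the maximum 49, and 13 genes reached 10 triplets. The fibrillar collagens had the longest runs, with 338 triplets in COL1A1, COL11A1 and COL11A2. Type IV, type VI and transmembrane chains had shorter ones, 40 in COL4A1 and 87 in both COL6A1 and COL6A2. The exons carry the same unit. Of 1915 internal coding exons of the 44 genes, 64.2% had a length divisible by 9 bases and 24.8% were exactly 54 bases long, against 13.1% and 0.408% in the other tested genes.

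**Figure D1:**
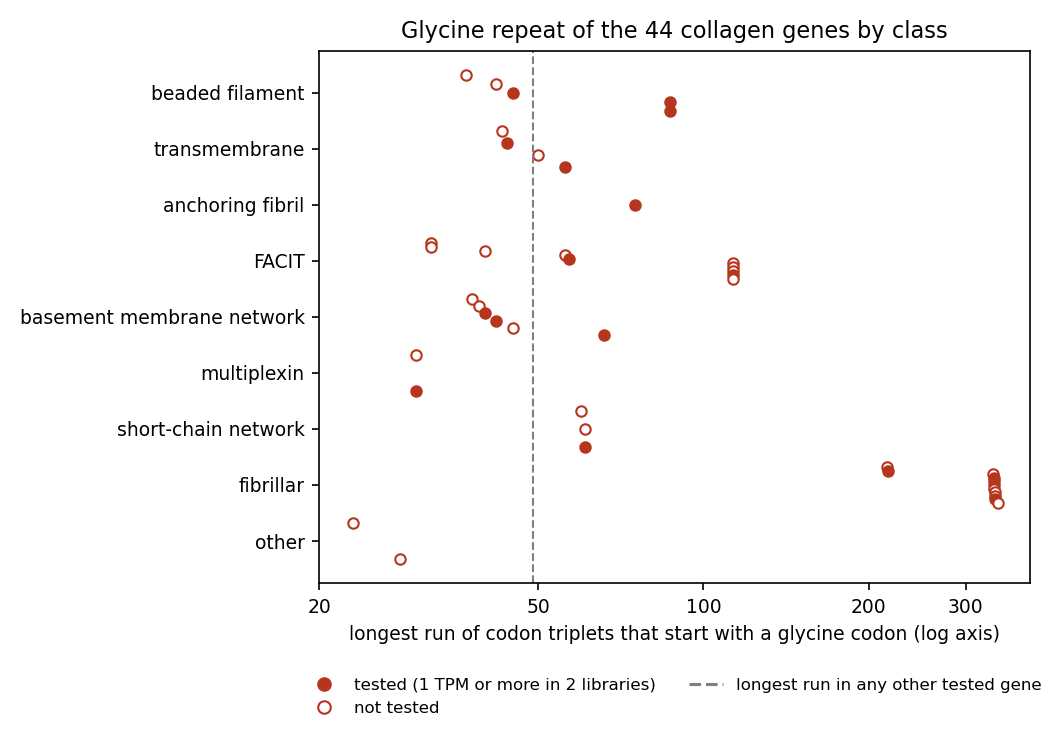
Longest run of codon triplets that begin with a glycine codon (x axis, log scale) for the 44 collagen genes in structural classes (rows). Filled points are the 18 tested genes, open points the 26 under 1 TPM, and the dashed line is the longest run in any other tested gene, 49 triplets. Fibrillar genes lie to the right, with runs of up to 343 triplets, and most of the tested genes belong to classes with shorter runs.

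Type VI collagen is built from the chains of COL6A1, COL6A2 and COL6A3, and COL6A3 had the largest ratio between the groups among the tested collagen genes. The start of the helix-coding run is shown for COL6A2 and COL6A3, the genes of this type that passed the test (5′ to 3′, glycine codons in capitals). The run has 87 triplets in COL6A2 from codon 256 and 45 in COL6A3 from codon 2168, and the first 7 triplets are given.
COL6A2: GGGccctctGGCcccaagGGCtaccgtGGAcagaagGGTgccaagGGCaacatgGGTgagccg
COL6A3: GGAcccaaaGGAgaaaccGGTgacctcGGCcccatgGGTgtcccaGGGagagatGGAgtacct
Every triplet in both stretches opens with a glycine codon, while the last base of that codon and the codons that follow it vary between the chains.

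Sequences before the RefSeq transcription start (GRCh38.p14) are shown for COL6A2 and COL6A3, the type VI genes that passed the test, and for COL4A1 and COL4A2, which start back to back. GENCODE places some starts elsewhere. Most of the COL6A3 window lies inside the gene as GENCODE annotates it, and the COL4A2 gene of GENCODE spans the whole region between the RefSeq starts. Capitals mark matches, on either strand, to 5 motifs. The GC box was searched as GGGCGG and the CCAAT box by the letters of its name. The TATA box was searched as TATAAA and the AP-1 site as TGANTCA. The core of the hypoxia response element was searched as ACGTG. The COL6A3 window is chr2:237414165-237414414 on the minus strand, the COL6A2 window chr21:46097862-46098111 on the plus strand, and the 126 bases between the starts of COL4A1 and COL4A2 are chr13:110307158-110307283, given on the plus strand.
COL6A3: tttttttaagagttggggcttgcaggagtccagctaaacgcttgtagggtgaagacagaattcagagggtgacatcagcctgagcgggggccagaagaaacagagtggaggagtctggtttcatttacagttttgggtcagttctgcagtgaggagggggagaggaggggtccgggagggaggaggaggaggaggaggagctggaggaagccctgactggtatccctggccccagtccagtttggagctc
COL6A2: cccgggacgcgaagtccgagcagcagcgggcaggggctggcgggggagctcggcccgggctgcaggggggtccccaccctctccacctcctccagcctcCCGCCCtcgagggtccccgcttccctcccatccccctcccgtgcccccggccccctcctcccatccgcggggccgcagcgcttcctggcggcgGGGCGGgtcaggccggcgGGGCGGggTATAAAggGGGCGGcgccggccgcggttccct
COL4A1 COL4A2: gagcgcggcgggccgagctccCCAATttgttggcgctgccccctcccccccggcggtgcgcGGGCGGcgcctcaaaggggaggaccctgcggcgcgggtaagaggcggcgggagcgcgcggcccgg
The COL6A3 window held 0 matches to any of the 5 motifs and was 56.0% G and C. The COL6A2 window held 4 GC boxes and 1 TATA box and was 79.6% G and C, and no motif matches overlapped. The region between COL4A1 and COL4A2 held 1 CCAAT match and 1 GC box. GC boxes were present in 42.3% of 27305 promoter windows of 250 bases, CCAAT in 33.0%, TATAAA in 11.1%, ACGTG in 18.7% and TGANTCA in 6.6%, and in windows of 126 bases the share was 34.6% for GC boxes and 21.9% for CCAAT. Among 32 collagen genes with an entry, 18 had a GC box (56.2%), 9 CCAAT (28.1%), 5 TATAAA (15.6%), 5 ACGTG (15.6%) and 0 TGANTCA. These matches describe letters and not occupied sites.

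DEK itself, the targeted gene (chromosome 6), was at 31.4 and 15.7 TPM in DEK KO 1 and 2, against 95.02 and 76.3 TPM in control 1 and 2. Its mRNA was lower in both knockouts and still present, at a log2 fold change of -1.89 on the log2(TPM + 1) scale (SE 0.33, limma, Benjamini-Hochberg adjusted p = 0.0304). Estimated depth was 35.8 and 40.1 for the knockouts and 38.9 and 39.6 for the controls, in units of 1000000 reads. In the same test 2804 of 15815 genes differed, 17.7%, with 9.06% higher and 8.67% lower in the knockout. All 10 markers of the renal carcinoma line were expressed, 2 higher (CA12 and KRT18) and 3 lower (PAX2, NNMT and CDH6) in the knockout. Of the renal lineage factors, PAX2 fell, with 12.4 and 8.94 TPM in the knockouts and 24.8 and 22.1 TPM in the controls (limma adjusted p = 0.0270), and PAX8 did not pass, at 140.1 and 160.4 TPM in the knockouts and 153 and 142 TPM in the controls. Of 10 fibroblast and pericyte markers 7 stayed under 1 TPM, with PDGFRA and DPT at 0 in all libraries. The list summed to 12.05 and 13.98 TPM in the knockouts and 9.035 and 9.493 TPM in the controls. ACTA2, smooth muscle actin, rose and made up 9.51 and 11.4 TPM of the knockout sums and 5.50 and 5.44 TPM of the control sums (limma adjusted p = 0.0300). The other 2 tested genes of this list, PDGFRB and RGS5, were below both controls in both knockouts and did not pass (log2 fold change -0.38 and -0.17, limma adjusted p = 0.257 and 0.525). The median log2 fold change of the 3 tested genes was -0.17. The 6 leukocyte markers were under 1 TPM in every library. Of 6 endothelial markers 5 were too, and TIE1 was at 0.918 and 1.85 TPM in the knockouts and 0 and 0.191 TPM in the controls. The part of these markers in the collagen values was not tested.

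COL18A1, which encodes the heparan sulfate bearing collagen whose C-terminal fragment is endostatin, had the highest level of the collagen genes, at 443 to 665 TPM. The type IV genes COL4A1 and COL4A2 and the type VI gene COL6A2 came next, each above 100 TPM in all libraries. COL7A1, COL8A1, COL27A1, COL6A1 and COL4A5 lay between 11.7 and 109.7 TPM. The chains of the main connective tissue fibrils were nearly absent. COL1A1 was at 1.48 to 2.33 TPM, COL1A2 above 0 in only DEK KO 1, at 0.0212 TPM, and COL3A1 at 0. For COL3A1 a count of 0 allows up to 3 reads, which is 0.0475 TPM in DEK KO 1 and 0.0420 TPM in control 2 at the annotated exon length, for counting error only.

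**Figure D2:**
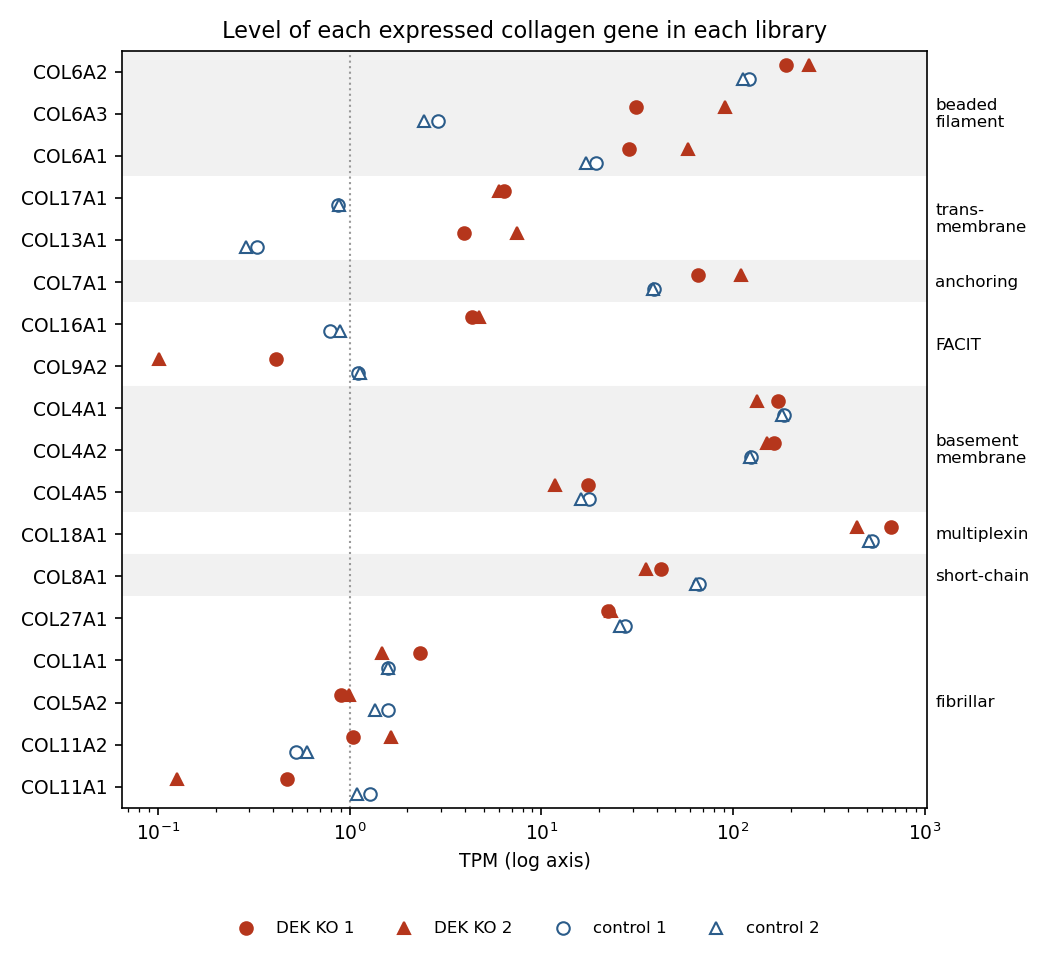
TPM of the 18 tested collagen genes (rows, grouped by structural class) in each library on a log axis, with DEK KO 1 and 2 as filled red circles and triangles above and control 1 and 2 as open blue circles and triangles below. The dotted line marks 1 TPM. All 3 type VI genes lie to the right in both knockouts, COL6A3 at 31.3 and 90.9 TPM against 2.91 and 2.46 TPM in the controls, while COL18A1 lies on both sides of its controls.

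Of 3 tested type VI collagen genes, COL6A3 and COL6A2 rose in the knockout and COL6A1 did not pass the test. COL6A3, on chromosome 2 (237324003 to 237414375, minus strand, GRCh38), encodes the longest chain, whose C-terminal fragment is endotrophin. It was at 31.3 and 90.9 TPM in DEK KO 1 and 2, against 2.91 and 2.46 TPM in control 1 and 2. Both knockouts were above both controls, and they lay 2.90-fold apart from each other. The means were 61.1 ± 42.1 TPM in the knockout and 2.68 ± 0.319 TPM in the control (SD, n = 2 each), so that the gene rose 22.8-fold (log2 fold change 3.89, SE 0.50, limma adjusted p = 0.0187). Without DEK KO 2 the ratio was 11.7, and without DEK KO 1 it was 33.9.

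COL6A2, on chromosome 21 (46098097 to 46132849, plus strand), had 189 and 250.1 TPM in the knockouts and 121 and 113 TPM in the controls. The groups did not overlap, and its mRNA rose 1.88-fold (log2 fold change 0.89, SE 0.15, limma adjusted p = 0.0272). COL6A1, which lies 93.05 kb before COL6A2 on the same strand, had 28.7 and 58.4 TPM in the knockouts, against 19.3 and 17.1 TPM in the controls. Both knockouts were again above the controls, and the gene did not pass (log2 fold change 1.134, SE 0.34, limma adjusted p = 0.0789). With 1 knockout left out, the spread comes from the controls alone, which lay closer together than the knockouts, and the lone knockout is assumed to vary like them. Under that assumption COL6A1 had a log2 fold change of 1.63 without DEK KO 1 (limma adjusted p = 0.00466) and 0.63 without DEK KO 2 (limma adjusted p = 0.0404). The chains combine in equal numbers in the protein. Their mRNA levels per length were unequal, with COL6A2 at 6.04 and 2.75 times COL6A3 in the knockouts and 41.7 and 45.9 times COL6A3 in the controls. The ratio of COL6A1 to COL6A2 was 0.152 and 0.234 in the knockouts and 0.159 and 0.151 in the controls, so those groups overlapped. COL6A5 and COL6A6, alternative chains, were at 0 in both knockouts and at no more than 0.0207 TPM in the controls.

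Both tested transmembrane collagens rose, and both were under 1 TPM in the controls, so that they were tested only because they were higher in the knockouts. COL13A1, a chain found at cell adhesion sites and the neuromuscular junction (chromosome 10, 69801867 to 69964275), was at 3.94 and 7.44 TPM in the knockouts and 0.328 and 0.288 TPM in the controls. The ratio of means was 18.5 (log2 fold change 2.30, SE 0.30, limma adjusted p = 0.0193), and it was 12.8 without DEK KO 2 and 24.2 without DEK KO 1. COL17A1, the hemidesmosomal collagen also known as BP180 (chromosome 10, 104031286 to 104085957), was at 6.41 and 6.03 TPM in the knockouts, against 0.866 and 0.884 TPM in the controls. Here the knockouts were close to each other, and the mRNA rose 7.11-fold (log2 fold change 1.95, SE 0.16, limma adjusted p = 0.0111), the smallest p of any collagen gene. The remaining transmembrane chains were not tested, with COL25A1 above 0 in only control 2, at 0.0225 TPM, and COL23A1 at 0.

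COL7A1, the only chain of the anchoring fibrils that tie basement membranes to the tissue below (chromosome 3, 48564073 to 48595267), was at 66.1 and 109.7 TPM in the knockouts and 38.8 and 38.4 TPM in the controls. It rose 2.28-fold (log2 fold change 1.12, SE 0.24, limma adjusted p = 0.0434), with the knockouts 1.66-fold apart. Among FACIT collagens, COL16A1 (chromosome 1, 31652247 to 31704319) was at 4.35 and 4.75 TPM in the knockouts, against 0.791 and 0.887 TPM in the controls. The knockouts were nearly equal and the rise was 5.42-fold (log2 fold change 1.59, SE 0.17, limma adjusted p = 0.0155). COL16A1 was under 1 TPM in both controls, so it was tested only because it was higher in the knockouts. COL9A2, a cartilage FACIT chain, was lower in both knockouts at a low level, with 0.416 and 0.101 TPM in the knockouts and 1.11 and 1.14 TPM in the controls, and did not pass (limma adjusted p = 0.0831). Without DEK KO 1, with the spread of the controls alone, its adjusted p in limma was 0.0464. The other 8 FACIT genes, COL9A1, COL9A3, COL12A1, COL14A1, COL19A1, COL20A1, COL21A1 and COL22A1, were not tested and reached at most 0.3075 TPM, in COL9A3 of DEK KO 2.

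Of 3 tested type IV genes, COL4A2 rose and COL4A1 and COL4A5 did not pass. COL4A2 (chromosome 13, 110305812 to 110513209, plus strand) was at 165 and 149.8 TPM in the knockouts and 124 and 123 TPM in the controls, and rose 1.27-fold (log2 fold change 0.34, SE 0.07, limma adjusted p = 0.0435). COL4A1, its back-to-back partner on the minus strand (110148963 to 110307233), was at 172 and 134 TPM in the knockouts, below the 185 and 180.5 TPM of the controls, and did not pass (log2 fold change -0.27, SE 0.13, limma adjusted p = 0.199). The chains join in a helix of 2 COL4A1 chains and 1 COL4A2 chain. The ratio of COL4A1 to COL4A2 mRNA was 1.04 and 0.894 in the knockouts and 1.49 and 1.47 in the controls, and these did not overlap. The COL4A2 call was lost with the trend on GC content removed (limma adjusted p = 0.165) and with the replicate number as a term (limma adjusted p = 0.0579). Without DEK KO 1, with the spread of the controls alone, COL4A1 had a log2 fold change of -0.45 (limma adjusted p = 0.00993). GC content was 62.0% for COL4A2 and 55.4% for COL4A1. In GENCODE the annotated genes overlap at their starts on opposite strands, and 2 antisense transcripts lie in COL4A2. The use of strand in counting is not given in the sources used here, so reads there cannot be told apart.

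COL4A5, a chain of the glomerular basement membrane affected in Alport syndrome, was at 17.5 and 11.7 TPM in the knockouts, against 17.7 and 16.1 TPM in the controls, with overlapping groups (limma adjusted p = 0.467). With the spread of the controls alone, its log2 fold change was -0.49 without DEK KO 1 (limma adjusted p = 0.0430) and 0.05 without DEK KO 2. COL4A6, which starts 379 bases from COL4A5 on the other strand, was not tested, at 0.283 and 0.307 TPM in the knockouts and 0.115 and 0.125 TPM in the controls. COL4A3 and COL4A4 were at no more than 0.0804 TPM in any library. COL18A1 (chromosome 21, 45405137 to 45513720) was at 665 and 443 TPM in the knockouts and 531 and 514 TPM in the controls. DEK KO 1 was above both controls and DEK KO 2 below them, and the gene did not pass (log2 fold change 0.05, SE 0.20, limma adjusted p = 0.863). With 1 knockout left out and the other assumed to vary like the 2 close controls, the log2 fold change was -0.24 without DEK KO 1 (limma adjusted p = 0.0292) and 0.35 without DEK KO 2 (limma adjusted p = 0.0249).

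COL8A1, a short-chain collagen of vessel walls and of Descemet's membrane in the cornea (chromosome 3, 99638475 to 99799226), was the collagen gene that fell. It was at 42.3 and 35.1 TPM in the knockouts, against 66.1 and 64.2 TPM in the controls. Its mean was 38.7 ± 5.12 TPM in the knockout and 65.2 ± 1.362 TPM in the control (SD, n = 2 each), a 1.68-fold lower level (log2 fold change -0.74, SE 0.11, limma adjusted p = 0.0236). The other short-chain genes, COL8A2 and the cartilage gene COL10A1, were at no more than 0.106 TPM.

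Of 11 fibrillar collagen genes 5 were tested and 0 passed limma, with 1 at an unadjusted p under 0.05. This was COL11A1, a minor chain of cartilage fibrils, with 0.474 and 0.126 TPM in the knockouts and 1.28 and 1.10 TPM in the controls (limma adjusted p = 0.0873, and 0.0470 without DEK KO 1 with the spread of the controls alone). COL27A1, a fibrillar chain of cartilage and the most abundant of the class here, was at 22.4 and 23.2 TPM in the knockouts and 27.3 and 25.6 TPM in the controls (log2 fold change -0.21, limma adjusted p = 0.173). COL5A2, a chain that joins type I fibrils, was at 0.900 and 0.995 TPM in the knockouts and 1.59 and 1.358 TPM in the controls. COL11A2, a minor fibrillar chain of cartilage, was at 1.05 and 1.65 TPM in the knockouts and 0.526 and 0.597 TPM in the controls. Its knockouts were above its controls and those of COL5A2 below, without a call for either gene (limma adjusted p = 0.138 for COL11A2 and 0.249 for COL5A2). COL1A1 was at 2.33 and 1.48 TPM in the knockouts, on both sides of the 1.59 and 1.60 TPM of the controls (limma adjusted p = 0.658). COL5A1, under the level for testing, was at 0.405 and 0.485 TPM in the knockouts and 0.0581 and 0.0672 TPM in the controls. COL2A1, the main cartilage chain, COL24A1 and COL5A3 were at no more than 0.0377 TPM in any library. COL26A1, outside these classes, was at 0.326 and 0.0322 TPM in the knockouts and 0.0332 and 0.0640 TPM in the controls, with overlapping groups.

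In all, 7 of the 18 tested collagen genes were higher and 1 was lower in the knockout, while 9.06% of all tested genes were higher and 8.67% lower. Which libraries brought a gene into the test bears on this count. There were 11 genes at 1 TPM or more in at least 1 library of each group, and of these COL6A3, COL6A2, COL7A1 and COL4A2 rose, COL8A1 fell and 6 did not pass. COL13A1, COL16A1, COL17A1 and COL11A2 reached 1 TPM only in the knockouts, so they entered the test only because they were higher there, and 3 of them rose. COL9A2, COL11A1 and COL5A2 reached it only in the controls, and 0 of 3 passed. The median log2 fold change of the 18 genes was 0.25, against -0.06 for all tested genes. Values of both knockouts lay above both controls for 9 genes and below them for 6, 15 in all, while 29.2% of all tested genes lay above and 39.0% below, 68.3% in all. Every call was lost without control 1 or without control 2, when the spread rests on the knockouts and the lone control is assumed to vary like them, and 0 collagen genes then passed limma, with 7 at an unadjusted p under 0.05 in each case. With 1 knockout left out, the narrower spread of the controls stands in for that of the knockouts, and 8 genes were then higher and 6 lower without DEK KO 1, and 9 higher and 1 lower without DEK KO 2.

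**Figure D3:**
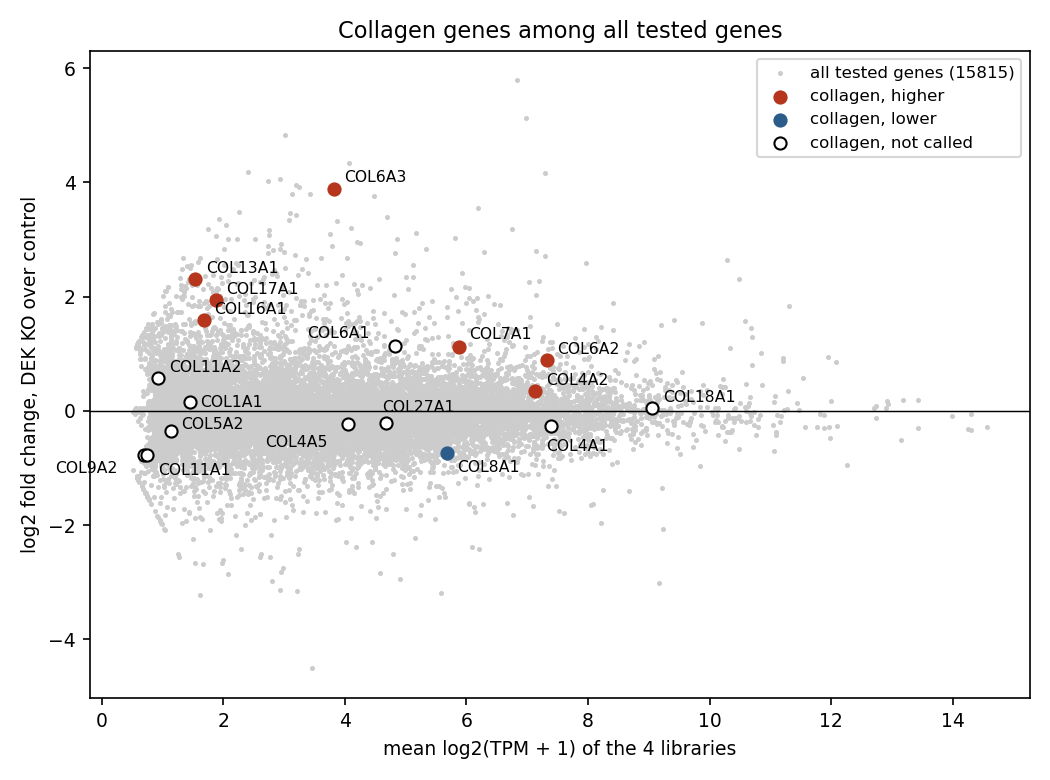
Log2 fold change of DEK KO over control (y axis) against the mean of log2(TPM + 1) over the 4 libraries (x axis) for all 15815 tested genes in grey. Collagen genes are red where higher (7), blue where lower (1) and open where not called (10). COL6A3 stands highest among them at 3.89, and COL18A1, with the highest level, lies close to 0.

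The knockout libraries differed from each other more than the controls did over the collagen genes. The median absolute difference on the log2(TPM + 1) scale was 0.38 between the knockouts and 0.06 between the controls over the 18 genes, against 0.19 and 0.10 over all tested genes. The knockouts were further apart than the controls in 16 of the 18 genes (88.9%) and in 66.4% of all tested genes. DEK KO 2 lay further from the controls than DEK KO 1 in 12 of the 18 genes, and in 10236 of all 15815. Chromosome medians also differed between the knockouts, over a range of 0.387 with the GC trend removed, against 0.0228 between the controls. Relative to the controls, the median of chromosome 2, which holds COL6A3, was -0.07 in DEK KO 1 and -0.14 in DEK KO 2. That of chromosome 21, which holds COL6A1 and COL6A2, was -0.02 in each. A change in a part of a chromosome may not show in such a median and was not tested. With chromosome medians centred, the same count of 7 higher and 1 lower was found, with each of the 18 calls as before.

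**Figure D4:**
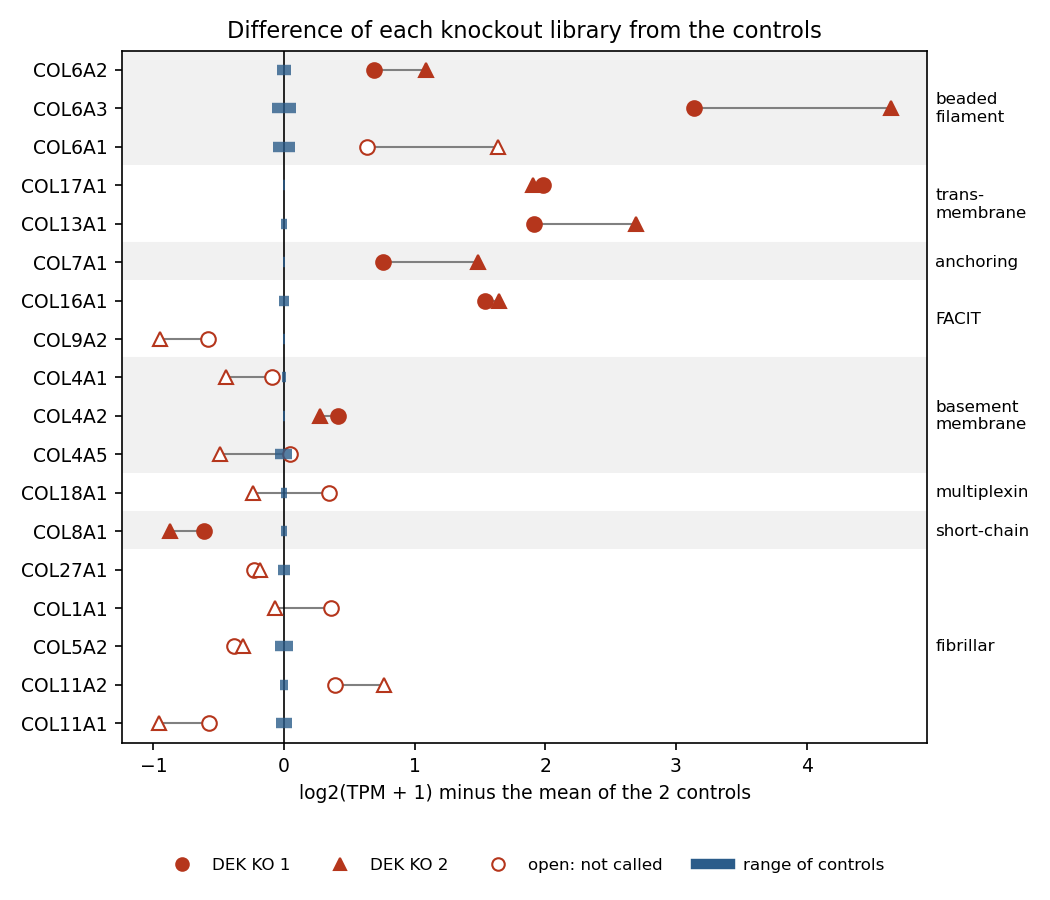
Difference of DEK KO 1 (circles) and DEK KO 2 (triangles) from the mean of the controls on the log2(TPM + 1) scale for each tested collagen gene, with the range of the controls as a blue bar. Filled symbols mark genes that passed the test. COL17A1 and COL16A1 have nearly coinciding knockouts, COL6A3 and COL6A1 have knockouts far apart on the same side of 0, and COL18A1 has them on opposite sides.

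The sum over all 44 collagen genes was 1421 and 1331 TPM in the knockouts and 1143 and 1103 TPM in the controls, which is 0.142% and 0.133% of all TPM against 0.114% and 0.110%. Type VI genes held 17.5% and 30.01% of this sum in the knockouts and 12.6% and 12.0% in the controls. Basement membrane type IV genes held 24.9% and 22.2% in the knockouts, against 28.6% and 28.98% in the controls. Their summed level overlapped between the groups, at 353.9 and 295.8 TPM in the knockouts and 326.7 and 319.7 TPM in the controls. The share of short-chain genes was 2.98% and 2.65% in the knockouts and 5.80% and 5.83% in the controls. The multiplexins, nearly all COL18A1, took 46.8% and 33.3% in the knockouts and 46.5% and 46.6% in the controls, so that their share in DEK KO 1 was like the controls and in DEK KO 2 lower. Without COL18A1 the sum was 756 and 889 TPM in the knockouts and 612 and 589 TPM in the controls. In bulk samples, fewer cells of a kind and less RNA per cell cannot be told apart.

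**Figure D5:**
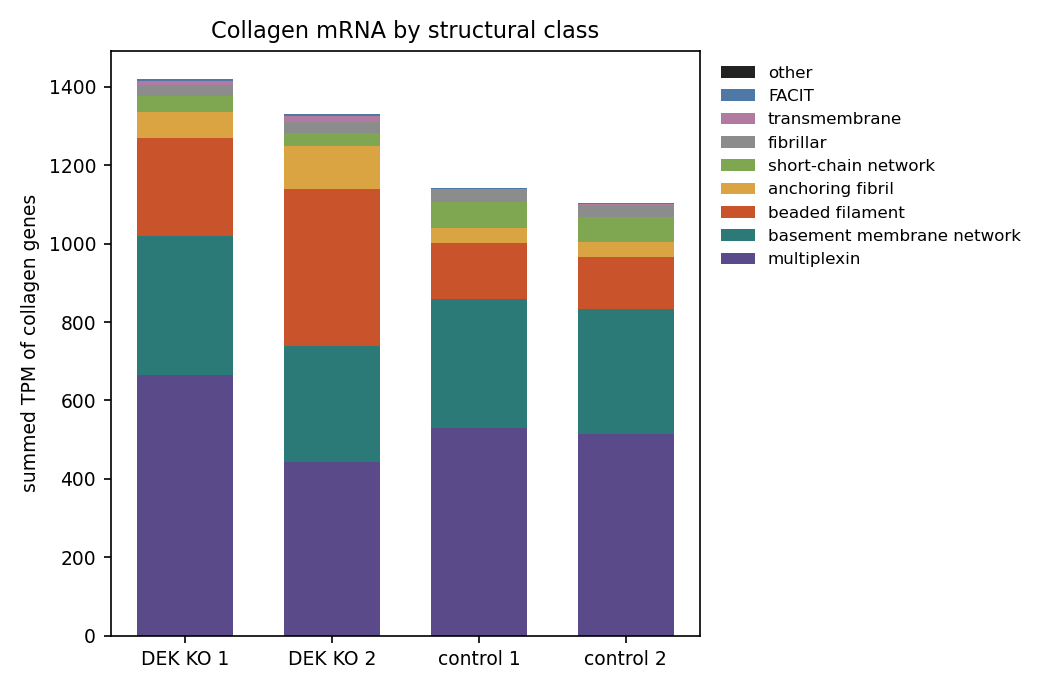
Summed TPM of the 44 collagen genes in each library, stacked by structural class from 0. The bars of DEK KO 1 and 2 reach 1421 and 1331 TPM and those of control 1 and 2 reach 1143 and 1103 TPM. The beaded filament class (type VI) is taller in both knockouts, and the multiplexin class is tallest in DEK KO 1 and shortest in DEK KO 2.

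The machinery that makes collagen was examined beside the chains, in lists chosen with results of these data known. New chains are hydroxylated and folded in the endoplasmic reticulum, exported, trimmed and crosslinked. Of 15 tested genes of folding and modification (17 listed), 8 rose and 1 fell, and their median log2 fold change was 0.39. Over all tested genes 9.06% were higher, 8.67% were lower and the median was -0.06. P4HA2, a catalytic subunit of prolyl 4-hydroxylase, was at 147 and 195 TPM in the knockouts and 61.0 and 60.9 TPM in the controls (limma adjusted p = 0.0143). FKBP10, a prolyl isomerase and chaperone of procollagen, was at 555 and 679.6 TPM in the knockouts and 278 and 265 TPM in the controls (limma adjusted p = 0.0137). These are rises of 2.81-fold for P4HA2 and 2.27-fold for FKBP10. P3H4, a partner of lysyl hydroxylase, rose 2.52-fold, with 65.1 and 78.8 TPM in the knockouts and 28.5 TPM in each control (limma adjusted p = 0.0126). P3H2, a prolyl 3-hydroxylase of type IV collagen, was the member that fell, with 69.6 and 70.2 TPM in the knockouts and 121 and 123 TPM in the controls (limma adjusted p = 0.0111). SERPINH1, the collagen chaperone HSP47, was at 75.6 and 71.5 TPM in the knockouts and 66.04 and 63.3 TPM in the controls and did not pass (limma adjusted p = 0.148).

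All 10 genes of procollagen export were tested and 0 passed limma, with a median of -0.09 and MIA3, whose product TANGO1 loads procollagen for export, at 17.02 and 11.9 TPM in the knockouts and 21.3 and 17.9 TPM in the controls. Unadjusted for the number of genes, SEC23A and MIA2 had p under 0.05, both lower. Of 10 tested genes of processing and crosslinking (14 listed), 4 rose and 0 fell, with a median of 0.53, against 9.06% higher, 8.67% lower and a median of -0.06 over all tested genes. BMP1, the procollagen C-proteinase, rose 1.40-fold, LOXL2, a lysyl oxidase, 1.27-fold, ADAMTS2, a procollagen N-proteinase, 1.96-fold and the protease gene FURIN 1.45-fold (limma adjusted p = 0.0248, 0.0292, 0.0414 and 0.0424 in that order). LOXL2 was the most abundant of the list, at 731 and 766 TPM in the knockouts and 595 and 589.7 TPM in the controls. LOX itself was above 0 in only DEK KO 2, at 0.0362 TPM.

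Of 5 tested collagen receptors (10 listed) 2 rose. MRC2, the endocytic collagen receptor Endo180, was at 314 and 347 TPM in the knockouts and 162 and 161 TPM in the controls, a 2.05-fold difference (limma adjusted p = 0.00916). ITGA2, the subunit that gives integrin alpha 2 beta 1 its collagen binding, was at 10.03 and 17.04 TPM in the knockouts and 3.58 and 3.48 TPM in the controls (3.84-fold, limma adjusted p = 0.0253). ITGB1, ITGA1 and the collagen receptor kinase DDR1 did not pass (limma adjusted p = 0.368, 0.265 and 0.844). Of 5 tested proteinases that cleave collagen (7 listed) 4 rose. MMP1, an interstitial collagenase, was at 9.46 and 35.3 TPM in the knockouts and 1.45 and 1.16 TPM in the controls (17.1-fold, limma adjusted p = 0.0355), and the ratio was 27.0 without DEK KO 1 and 7.24 without DEK KO 2. MMP13, a further collagenase, rose 8.58-fold and MMP9, a gelatinase, 7.75-fold (limma adjusted p = 0.0111 and 0.0193), and both were under 1 TPM in the controls, so that they were tested only because they were higher in the knockouts. MMP14 rose 2.06-fold (limma adjusted p = 0.0223). Of 14 partners of collagen fibrils 12 were under 1 TPM in every library and 7 of these were at 0, most of them small proteoglycans that coat fibrils. Of the 2 tested, FN1, fibronectin, rose 1.81-fold (limma adjusted p = 0.0125) and SPARC, a collagen-binding matrix protein, did not pass (limma adjusted p = 0.815). Over the 47 tested genes of these lists, 19 rose and 1 fell, where 9.06% of all tested genes were higher and 8.67% lower. The lists were chosen with results of these data known.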

How the data were processed

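The 4 libraries were assigned to DEK KO or negative control from their titles. The authors deposited TPM for 59409 gene symbols, each library summing to 1000000. Per the submitters' processing notes the build was hg38, and STAR 2.7.8a, cutadapt 1.18 and featureCounts 2.0.1 were among the tools. No source used here states the annotation, the gene lengths or the use of strand.

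For coordinates and lengths, symbols were matched to GENCODE 29 on GRCh38, 54390 by name and 2194 by current symbol. Depth was estimated from the steps that single reads leave in low TPM values and is approximate, since 48.9% to 53.1% of low values came out whole to within 0.02. Replicate libraries differed beyond sampling noise (chi-square per gene 7.87 between controls, 39.2 between knockouts).

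The 15815 genes that reached 1 TPM in 2 or more libraries were analysed on the log2(TPM + 1) scale. The limma package (3.58.1, R 4.3.3) fitted the group alone, using a variance prior that follows mean expression and Benjamini-Hochberg adjustment at 0.05. Log2 fold changes are on that scale, which understates low genes; a plain fold is the ratio of group means in TPM. The procedure was run on simulated data with the same spread in both groups. In the real data the knockouts lay further apart than the controls, which the simulation does not cover. Every tested collagen gene is named, and from each pathway list up to 4 genes past the threshold with the smallest p. MIA3, SERPINH1, SEC23A, MIA2, LOX, SPARC, DDR1, ITGA1, ITGB1 and the noncoding genes near COL6A3 were named after their values were seen. The members and lists were chosen with earlier results of these data known. Alternatives covered the pseudocount, filter, scaling, variance prior, replicate block, threshold, GC, length and chromosome trends, and leaving out each library.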

Additional observations from a re-analysis of the deposited data

How the results depend on the processing

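With 1 library left out, the collagen count ranged from 0 to 14, the pathway count from 0 to 30 and the count over all genes from 0 to 5289, with 0 when either control was left out and the highest without DEK KO 1, when the spread comes from the controls alone. With no filter on low values, where 31270 genes were tested, limma called 0 collagen genes (14 at an unadjusted p under 0.05), 0 pathway genes (29 unadjusted) and 26 genes in all. The adjusted p of the 8 called collagen genes then lay between 0.0604 and 0.119. With a constant variance prior the counts were 4, 11 and 1437, and COL7A1 (adjusted p = 0.0742), COL8A1 (0.0502), COL6A2 (0.0563) and COL4A2 (0.102) did not pass. At an adjusted p of 0.01 they were 0 collagen genes (11 unadjusted), 1 pathway gene and 90 genes in all. The smallest limma adjusted p of a collagen gene with the main settings was 0.0111, in COL17A1, so none could pass at 0.01. Why the counts moved with the filter, the variance prior and the library left out was not tested. Under both other pseudocounts, median-ratio scaling, quantile normalization, and the length and chromosome settings the collagen count was 8, with 7 higher. It was 7 with the GC trend removed and 6 of 11 tested genes with a filter of 5 TPM.

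The values that changed sign belonged to genes that had not passed with all libraries. COL18A1 had a log2 fold change of -0.038 with quantile normalization and -0.089 with the GC trend removed. With 1 library left out the log2 fold change ranged from -0.238 to 0.348 for COL18A1, -0.065 to 0.363 for COL1A1 and -0.491 to 0.047 for COL4A5. Among all called genes 51.1% were higher, against 62.0% with the length trend removed and 62.1% with chromosome medians centred. The groups share replicate numbers, and the labels do not say what the numbers mean. The deviations of same-numbered libraries had a correlation of 0.0989 across genes, and whether the numbers mark a shared batch is not known. With the replicate block 7 collagen genes, 20 pathway genes and 2971 genes in all passed, without COL4A2 among the collagens. Many genes under 1 TPM rest on few reads, though some long collagen genes at that level hold more. Genes below the filter were tested only in the setting with no filter on low values, where limma called 0 of 42 collagen genes.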

Other observations

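Near COL6A3, noncoding transcripts upstream of its start were also higher in the knockout. The nearer ends of AC112721.1 and AC112721.2, long noncoding RNA genes on the same strand of chromosome 2, lie 7.05 kb and 14.5 kb upstream of the annotated start of COL6A3. They were singled out after their values were seen. AC112721.2 (237428920 to 237434822) was at 14.3 and 52.2 TPM in DEK KO 1 and 2, against 1.28 and 1.94 TPM in control 1 and 2, and rose (log2 fold change 3.46, SE 0.60, limma adjusted p = 0.0297). AC112721.1 (237421420 to 237425276) was at 6.60 and 22.2 TPM in the knockouts and 0.504 and 0.810 TPM in the controls (log2 fold change 3.01, SE 0.55, limma adjusted p = 0.0317). It was under 1 TPM in both controls, so it was tested only because it was higher in the knockouts. The value of DEK KO 2 was 3.64 times that of DEK KO 1 for AC112721.2, 3.36 times for AC112721.1 and 2.90 times for COL6A3. Within 500 kb, counted between the left ends of the genes, there were 2 more tested genes, COPS8, which rose (log2 fold change 0.42, limma adjusted p = 0.0452), and LRRFIP1, which did not pass (0.27, limma adjusted p = 0.0866). Around COL6A2, 0 of 9 tested neighbours, COL6A1 included, were higher and 2 were lower, MCM3AP (log2 fold change -0.41, limma adjusted p = 0.0317) and PCNT (-0.57, limma adjusted p = 0.0381). Around COL6A1, 2 of 11 were higher, LINC01694 and COL6A2, and the same 2 were lower. Over all tested genes 9.06% were higher and 8.67% lower, and these counts are too small to compare the places.

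Of the 26 collagen genes under the level for testing, 7 had both knockouts above both controls. In 4 genes both were below (COL4A4, COL6A5, COL6A6 and COL8A2), and 15 had overlapping groups or were at 0. Over all tested genes 29.2% lay above and 39.0% below, and the share among all genes under that level was not computed. Many genes at this level rest on few reads, and the split of 7 and 4 was not tested. COL28A1 had more, at an estimated 47.7 and 67.8 reads in the knockouts and 36.9 and 29.3 reads in the controls. COL15A1, the multiplexin related to COL18A1, was at 0.198 and 0.442 TPM in the knockouts and 0.0364 and 0.0175 TPM in the controls. COL28A1, a chain with von Willebrand factor domains, was at 0.777 and 0.983 TPM in the knockouts, against 0.552 and 0.421 TPM in the controls, the highest level among the genes not tested. COL10A1 was at 0.0292 and 0.104 TPM in the knockouts and at 0 in both controls. COL12A1, a FACIT chain common in fibroblasts, was at 0.0356 and 0.0951 TPM in the knockouts and 0.0979 and 0.0551 TPM in the controls, with overlapping groups. The antisense transcript COL4A2-AS1 was at 8.38 and 11.7 TPM in the knockouts and 6.59 and 5.65 TPM in the controls and did not pass (log2 fold change 0.62, limma adjusted p = 0.0877).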
